A study of Arabidopsis thaliana with 12 samples.

Results

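A set of 10 genes of the aliphatic glucosinolate pathway were followed across roots and leaves of *Arabidopsis thaliana* seedlings, in wild type (WT) and in the *pi4kß1ß2* mutant. They were taken by a list of gene IDs, 10 of the 37336 gene IDs counted in each library. They comprise the regulators MYB28 (AT5G61420) and MYB29 (AT5G07690), the chain elongation genes BCAT4 (AT3G19710), MAM1 (AT5G23010) and MAM3 (AT5G23020), the core structure genes CYP79F1 (AT1G16410), CYP79F2 (AT1G16400), CYP83A1 (AT4G13770) and SOT18 (AT1G74090), and the side chain oxygenase gene FMO GS-OX1 (AT1G65860). All 10 are annotated as protein coding. There were 2 tandem pairs among them, CYP79F2 and CYP79F1 on chromosome 1 and MAM1 and MAM3 on chromosome 5, the latter 11144 bases apart.

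Glucosinolates are sulfur-rich defence compounds of the cabbage order that are stored in the plant and cut by myrosinases when tissue is damaged. The aliphatic ones are made from methionine in 3 stages. BCAT4 and the methylthioalkylmalate synthases MAM1 and MAM3 lengthen the side chain, CYP79F1 and CYP79F2 turn the lengthened amino acid into an aldoxime that CYP83A1 oxidises, SOT18 adds the last sulfate of the core, and FMO GS-OX enzymes then oxidise the sulfur of the side chain. MYB28 is the main transcriptional activator of these genes, and MYB29 is a close relative with a partly overlapping role.

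RNAseq was run on 12 libraries, 3 each of WT roots, *pi4kß1ß2* roots, leaves labelled WT and leaves labelled *pi4kß1ß2*. All were from untreated seedlings on agar medium, with an age of 7 days given for each. WT is the Col-0 accession, the mutant carries T-DNA insertions in both PI4Kß1 and PI4Kß2, which encode phosphatidylinositol 4-kinases, and RNA of many plants was pooled for each root library. The paper describes the roots and not the leaves. The libraries held 38116716 to 46577151 counts on genes. In roots PI4KB1 was 0.65 times and PI4KB2 0.48 times the WT level and neither overlapped between genotypes. In leaves both kinase genes went against 2 labels. PI4KB2 showed it most clearly: it measured 11.8, 4.64 and 12.0 normalized CPM, which are read counts scaled to a common library size, in leaf replicates 1 to 3 labelled WT and 11.04, 6.40 and 6.84 CPM in those labelled *pi4kß1ß2*, so that WT leaf replicate 2 was lowest of all and *pi4kß1ß2* leaf replicate 1 lay at the level of the other WT leaves. PI4KB1 measured 60.9, 47.4 and 67.7 CPM in leaves labelled WT and 79.4, 53.9 and 52.0 CPM in those labelled *pi4kß1ß2*, with WT leaf replicate 2 again lowest and *pi4kß1ß2* leaf replicate 1 highest. Leaf libraries are therefore called by their labels, and the main calls and counts that rest on them are also given without these 2 libraries. The stage label of WT leaf replicate 3 holds planting and harvest dates weeks apart in place of the growth stage given for the other libraries. Its age of 7 days is therefore less sure. All 10 leaf markers, photosynthesis genes, were higher in leaf than in root libraries and all 7 root markers were higher in root libraries, for both labels.

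The stretch before the annotated start of 3 genes is shown because CYP79F1 and CYP79F2 on the one hand and CYP83A1 on the other catalyse consecutive steps and were the only members whose promoter window (250 bases before to 50 after the start) holds the element ACCTACC, searched on both strands. It was present in 3 of the 10 windows and in 1.38% of the windows of 27443 genes. CYP79F1 and CYP79F2 lie next to each other on chromosome 1, on the same strand and 1183 bases apart. Their transcripts were identical at 88.6% of aligned bases. The 250 bases before their annotated starts were identical at 48.2% of alignment columns, gaps included. The 2 values are unlike measures, the stretches depend on where each start is annotated, and no identity of unrelated stretches was taken. They therefore do not show how far the promoters have diverged. The sequences are from the TAIR10.1 reference, 5′ to 3′ on the strand of the gene, and capitals mark ACCTACC, its reverse complement GGTAGGT, and the G-box CACGTG, a sequence that MYC factors can bind.
CYP79F1, chr1:5608432-5608681, plus strand: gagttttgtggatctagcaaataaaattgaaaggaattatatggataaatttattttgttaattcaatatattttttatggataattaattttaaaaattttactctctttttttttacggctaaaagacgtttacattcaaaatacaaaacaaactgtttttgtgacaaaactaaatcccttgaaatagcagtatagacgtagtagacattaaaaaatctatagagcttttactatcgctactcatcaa
CYP79F1, site after the start, chr1:5608707-5608731, plus strand: tgattaccgtagtACCTACCcaaaa
CYP79F2, chr1:5604794-5605043, plus strand: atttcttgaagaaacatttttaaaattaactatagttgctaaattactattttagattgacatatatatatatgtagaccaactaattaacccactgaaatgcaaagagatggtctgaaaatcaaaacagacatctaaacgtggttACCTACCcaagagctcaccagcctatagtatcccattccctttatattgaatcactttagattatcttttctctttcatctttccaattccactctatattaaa
CYP83A1, chr4:7992430-7992679, minus strand: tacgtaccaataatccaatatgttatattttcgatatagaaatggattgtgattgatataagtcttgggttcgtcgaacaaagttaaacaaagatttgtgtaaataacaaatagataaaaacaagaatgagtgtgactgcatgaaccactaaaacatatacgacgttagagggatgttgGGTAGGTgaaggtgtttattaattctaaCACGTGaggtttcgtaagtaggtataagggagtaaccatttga

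The element lay at different places in the neighbouring pair. Its first base lay 104 bases before the start of CYP79F2 and 39 bases after the start of CYP79F1, inside the transcribed part. In CYP83A1 it lay 71 bases before the start, and CACGTG, found in 7.68% of all windows, lay 43 bases before it. The related element ACCTAAC occurred in the window of FMO GS-OX1 and in 2.88% of all windows, and ACCAACC in no member's window and in 3.29% of all. The sulfur-response core GAGAC was in the windows of MYB29 and SOT18 and in 32.8% of all. These matches describe letters and carry no measure of binding.

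In WT roots the members spanned a wide range of abundance. Per kilobase of exon, BCAT4 was highest at 177 ± 7.66 normalized CPM (SD, n = 3), followed by MAM3 at 155 ± 3.97, and both exceeded 97.3% or more of the 20694 genes ranked per kilobase. CYP83A1 at 79.0 ± 6.12, SOT18 at 72.8 ± 6.44, CYP79F2 at 61.5 ± 4.14, MAM1 at 50.3 ± 3.67 and MYB28 at 29.6 ± 3.67 formed a middle group, in which CYP83A1 and SOT18 did not differ beyond their spread. FMO GS-OX1 at 1.295 ± 0.027, CYP79F1 at 0.34 ± 0.07 and MYB29 at 0.10 ± 0.01 normalized CPM per kilobase were low. Of the neighbouring pair it was thus CYP79F2 that carried nearly all reads in roots: the CYP79F1 level per kilobase was 0.45% to 0.66% of that of CYP79F2 in WT roots.

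**Figure D1:**
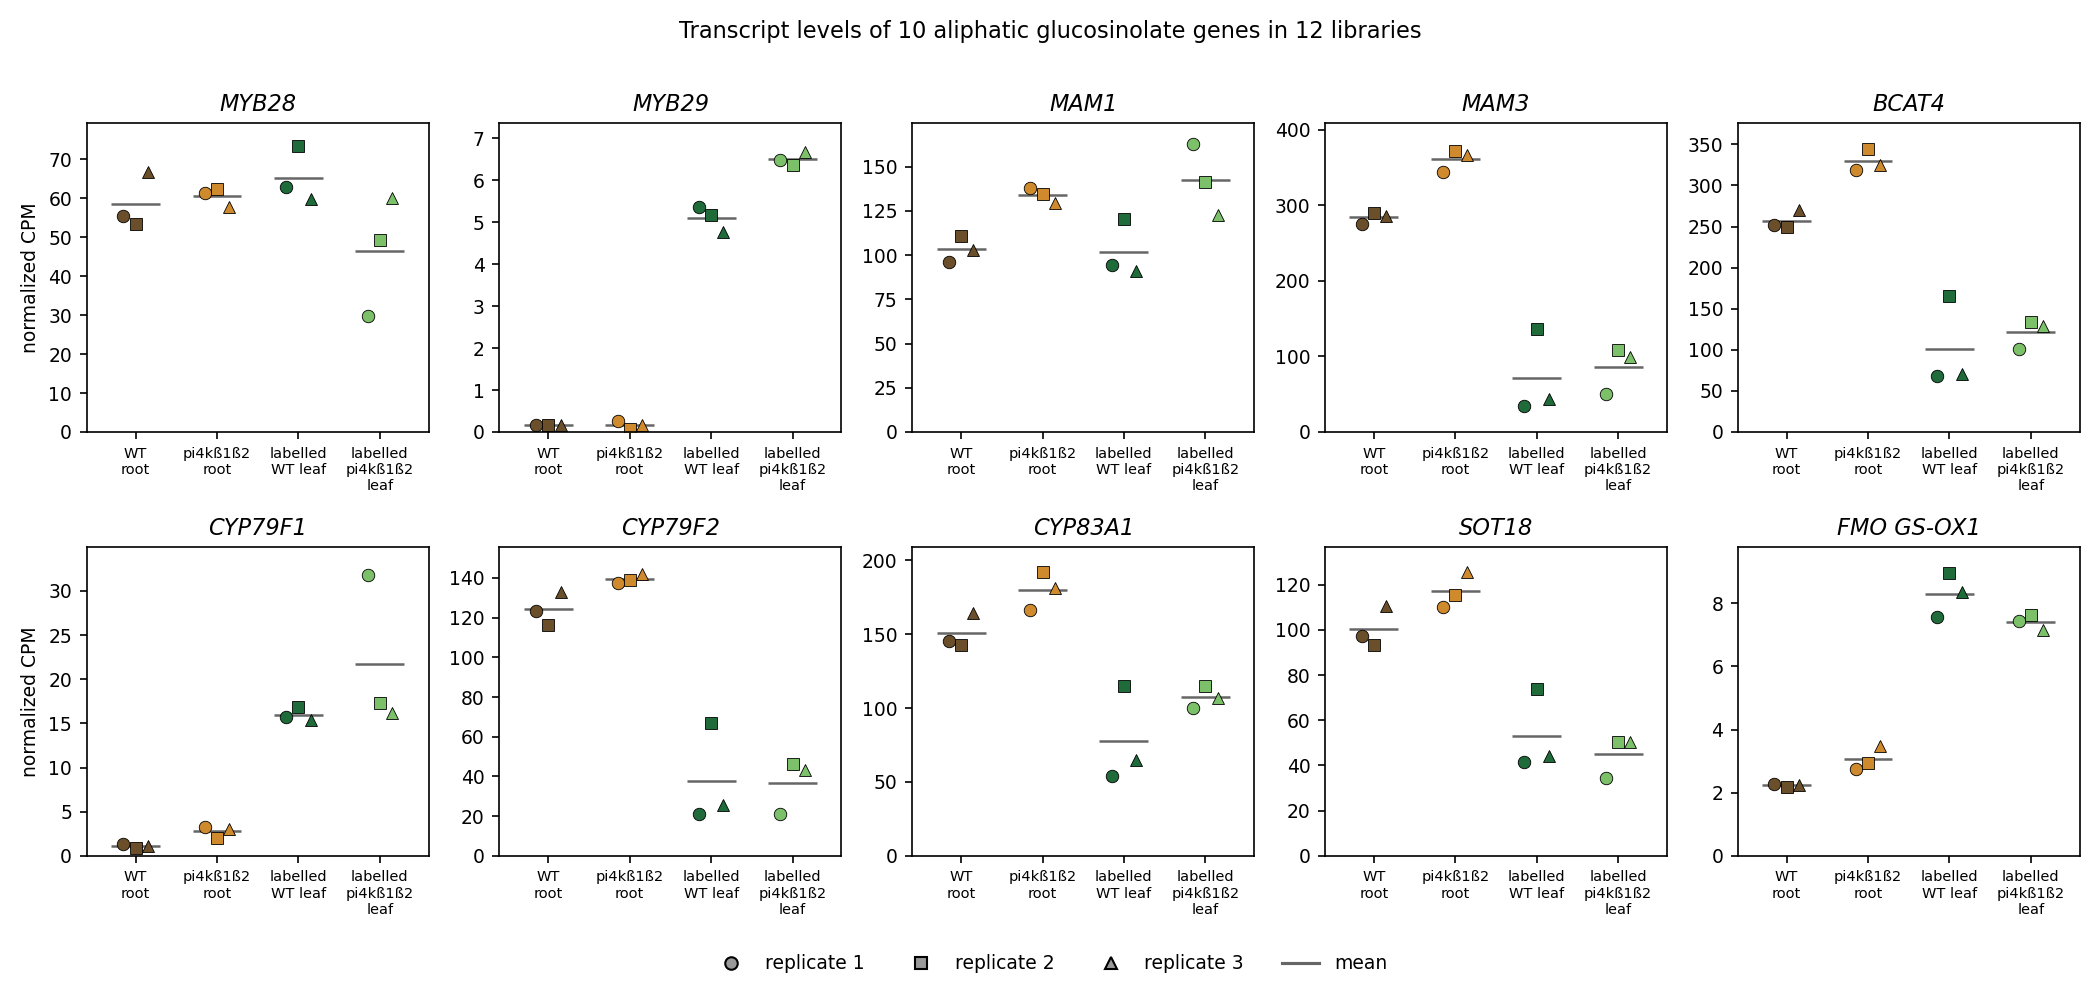
Normalized CPM (y axis, linear, from 0, own scale in each panel) of the 10 genes in the 4 groups (x axis), with a point per library shaped by replicate and a line at the group mean. MAM1, MAM3, BCAT4, CYP79F1, CYP79F2, CYP83A1 and FMO GS-OX1 do not overlap between WT and *pi4kß1ß2* roots, and leaf replicate 2 labelled WT stands above the other 2 WT leaves for MAM3 (136 against 34.4 and 43.1 CPM).

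The comparison of *pi4kß1ß2* with WT roots asked how the loss of both kinases bears on root transcripts. In *pi4kß1ß2* roots, enzyme genes of chain elongation, core formation and oxidation were higher, by 1.19- to 1.37-fold for 5 of those called and 2.49-fold for CYP79F1, while the level of the activator MYB28 moved by less than its error. Of the 9 members tested, 6 were higher and 0 lower at an adjusted p under 0.05, where 26.6% of all 19694 genes tested were called, 11.3% higher and 15.2% lower. All 9 fitted changes were positive, with a median log2 fold change of 0.35 against 0.01 over all genes. The groups did not overlap for 7 of the 9, all of them higher in the mutant, as they did for 20.5% of all genes. Whether more cells or more transcript per cell lie behind a level in whole roots cannot be told apart.

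BCAT4, the aminotransferase that starts chain elongation, measured 252, 249.6 and 269.9 normalized CPM in WT replicates 1 to 3 and 319, 344 and 325 in *pi4kß1ß2*. MAM3, which can make long chains, measured 276, 289.8 and 286 CPM in WT and 344, 372 and 367 in *pi4kß1ß2*. MAM1, its neighbour on chromosome 5, which makes shorter chains, measured 95.9, 111 and 103 CPM in WT and 138, 134.5 and 129 in *pi4kß1ß2*. In all 3 genes every mutant library was above every WT library. The log2 fold changes were 0.36 ± 0.05 (SE) for BCAT4, 0.35 ± 0.04 for MAM3 and 0.38 ± 0.06 for MAM1, with adjusted p of 0.002, 0.00099 and 0.0025 by the quasi-likelihood F test of edgeR, adjusted after Benjamini and Hochberg over all genes tested. The level of MAM1 per kilobase was 31.0% to 34.1% of that of MAM3 in the WT and 31.4% to 35.8% in the mutant, so the ratio within the pair overlapped between the genotypes.

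The neighbouring CYP79F genes, whose products feed short and long chains into the core pathway, differed in size of change. CYP79F1, the copy at low level in roots, measured 1.33, 0.85 and 1.17 CPM in WT (62, 44 and 59 counts) and 3.27, 2.04 and 3.02 CPM in *pi4kß1ß2* (168, 102 and 169 counts). It was the member with the largest fitted change, 2.49-fold, a log2 fold change of 1.31 ± 0.23 with an adjusted p of 0.0049 (edgeR). CYP79F2 measured 124, 116 and 133 CPM in WT and 137, 139 and 142 in *pi4kß1ß2*. Its groups did not overlap either, but the log2 fold change of 0.17 ± 0.05 had an adjusted p of 0.058 (edgeR) and did not pass. The CYP79F1 level per kilobase was 0.90% to 1.47% of that of CYP79F2 in mutant roots. The transcripts are alike, but by the study's methods a read that matched several genes was not counted. Of 75-base windows, 0.97% of those of CYP79F1 also occur in CYP79F2, so few reads of CYP79F1 would be lost in this way.

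Further along the core, CYP83A1, the aldoxime oxidase, measured 145, 143 and 164 CPM in WT and 167, 192 and 181 in *pi4kß1ß2*. SOT18, the sulfotransferase, measured 97.3, 93.5 and 110.45 CPM in WT and 110.2, 115 and 126 in *pi4kß1ß2*. The lowest mutant library lay just above the highest WT library for CYP83A1 and just below it for SOT18. CYP83A1 rose with a log2 fold change of 0.26 ± 0.07 and an adjusted p of 0.038 (edgeR), and SOT18 had 0.22 ± 0.07 with 0.055 and did not pass. The oxygenase gene FMO GS-OX1 measured 2.29, 2.19 and 2.25 CPM in WT and 2.77, 2.95 and 3.48 in *pi4kß1ß2*, a rise of 0.45 ± 0.12 on the log2 scale with an adjusted p of 0.029 (edgeR).

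Of the MYB regulators of this branch only MYB28 was tested in roots, and it did not pass. MYB28 measured 55.4, 53.4 and 66.9 CPM in WT and 61.4, 62.4 and 57.8 in *pi4kß1ß2*, with overlapping groups, a log2 fold change of 0.05 ± 0.09 and an adjusted p of 0.74 (edgeR). MYB29 was at 3 to 14 counts per root library, 0.06 to 0.27 CPM, and did not reach the 1 CPM in 3 libraries needed for the test. MYB76, the remaining relative of this group and the neighbour of MYB29, was at 0 to 2 counts in roots and was left out by the same filter.

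BCAT4, MAM1, MAM3 and CYP79F1 were called without any of the 6 root libraries in turn, with adjusted p up to 0.0249 (edgeR). CYP83A1 lost its call without WT root replicate 1 or 2 or *pi4kß1ß2* root replicate 2 or 3 (adjusted p up to 0.121), and FMO GS-OX1 lost it in every case but that without *pi4kß1ß2* root replicate 1 (up to 0.0995) and in DESeq2 (0.063), while without WT root replicate 3 CYP79F2 and SOT18 were called. When the root comparison shared 1 estimate of the spread with the leaf libraries, 2 members, CYP79F1 and FMO GS-OX1, were called. The split of all calls depended on scaling: 2233 genes were higher and 3000 lower after TMM scaling, and 3122 higher and 2583 lower with library size alone, where the 6 members stayed higher. Among root markers, PRP3 (a root hair cell wall protein) and PIN2 (an epidermal auxin carrier) rose in *pi4kß1ß2* roots. CASP1 and CASP2 (endodermal Casparian strip proteins) fell. The other root markers COBL9, EXPA7 and LRX1 had log2 fold changes of -0.22, 0.0026 and 0.50 and did not pass. The call of PRP3 held in 2 of the 6 fits that each left out 1 root library. The part of a changed make-up of the root in the members' changes was not tested. Of the 10 leaf markers none was called between root genotypes, and their summed level was 179 to 422 CPM in the WT against 105 to 231 CPM in the mutant.

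**Figure D2:**
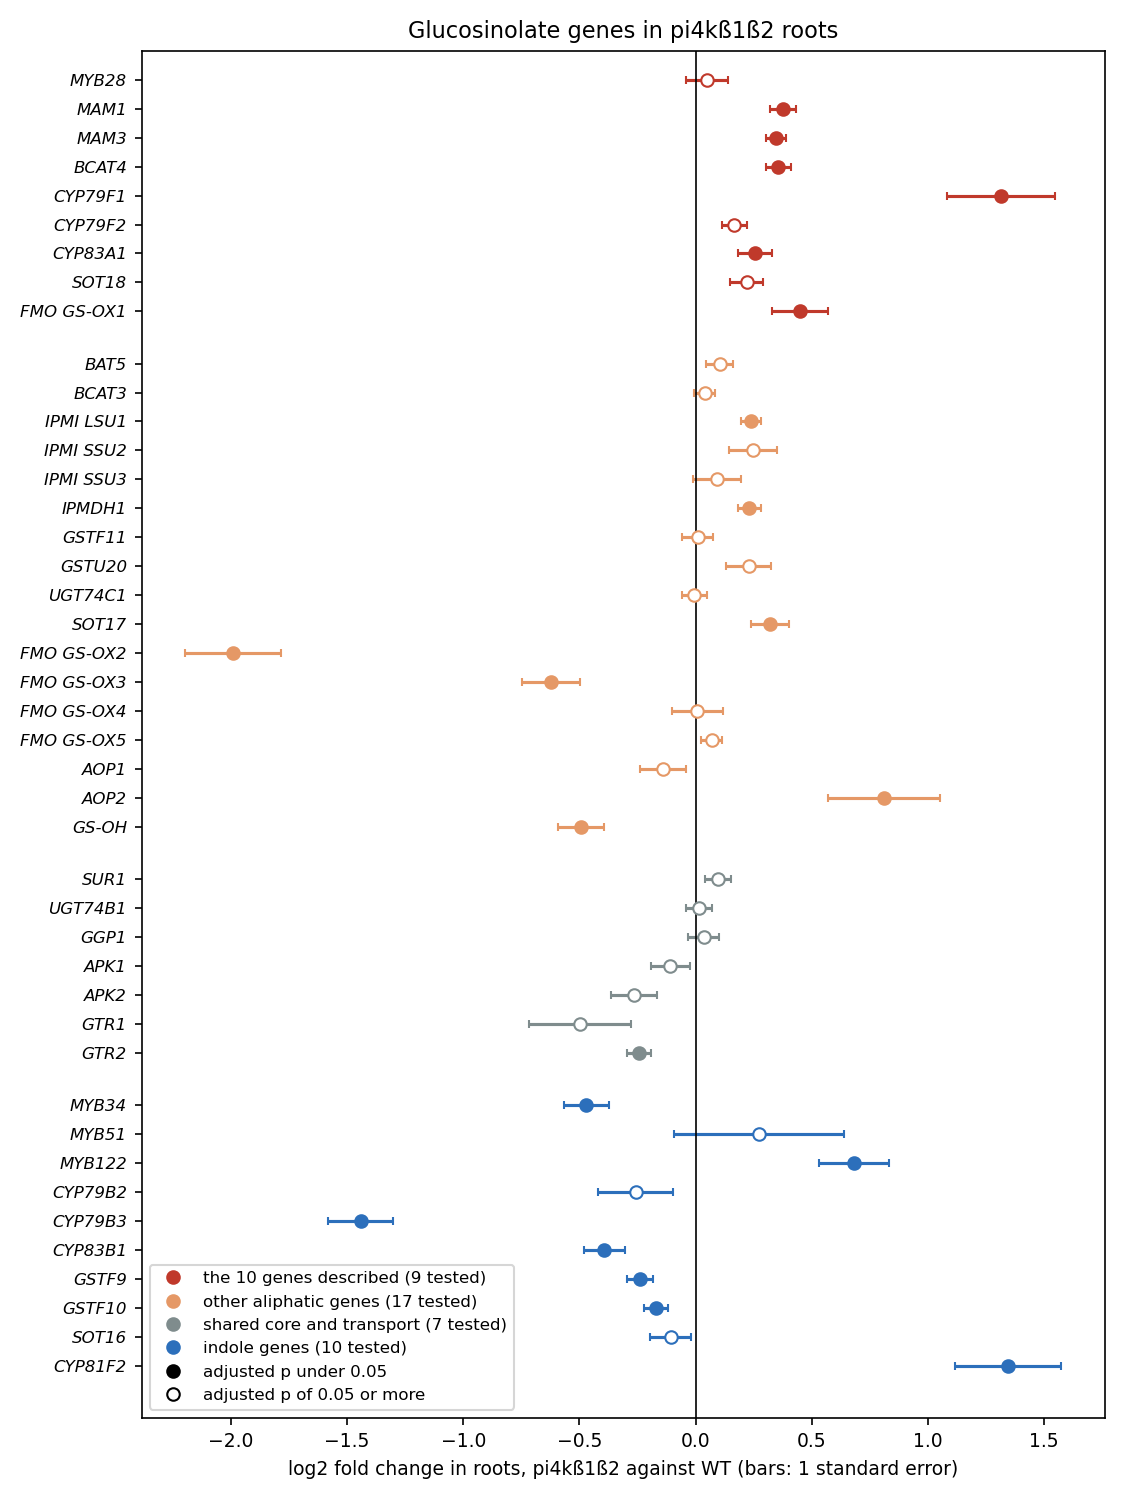
Log2 fold change in roots, *pi4kß1ß2* against WT (x axis, bars 1 SE), for every tested gene (y axis) of 4 lists: the members, other aliphatic genes, shared core and transport genes, and indole genes. Filled points have an adjusted p under 0.05. All 9 members lie above 0, FMO GS-OX2 lies at -1.99, and CYP79B3 of the indole pathway at -1.44.

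The other genes of the aliphatic pathway moved less uniformly in roots. Of 20 such genes 17 were tested, 4 rose and 3 fell, with a median log2 fold change of 0.07. Over all genes tested in roots 11.3% were called higher and 15.2% lower. The 4 that rose were AOP2 (0.81 ± 0.24), the sulfotransferase SOT17 (0.32 ± 0.08), and 2 chain elongation genes, the isomerase subunit IPMI LSU1 (0.24 ± 0.04) and the dehydrogenase IPMDH1 (0.23 ± 0.05). AOP2 is annotated as a transcribed pseudogene in this reference and was at 1.15 to 2.00 CPM in the WT and 2.06 to 2.93 CPM in the mutant. Its call (adjusted p 0.042, edgeR) held in 2 of the 6 fits that each left out 1 root library, and that of SOT17 in 3. The genes that fell all act on the side chain. FMO GS-OX2 measured 4.06, 3.05 and 3.72 CPM in WT and 0.88, 0.68 and 1.16 in *pi4kß1ß2* roots. That is a fall of 1.99 ± 0.21 on the log2 scale with an adjusted p of 0.00041 (edgeR), and no mutant library reached any WT library. FMO GS-OX3 fell by 0.62 ± 0.12 and GS-OH, which hydroxylates the alkenyl side chain, by 0.50 ± 0.10. FMO GS-OX1 thus rose where the related GS-OX2 and GS-OX3 fell, and FMO GS-OX4 (0.01 ± 0.11) and GS-OX5 (0.07 ± 0.05) did not pass the test.

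Of 7 genes shared by the aliphatic and indole branches, the transporter GTR2 fell (-0.24 ± 0.05) and none rose. Of 7 upstream regulators, MYC3 (-0.26 ± 0.04) and MYC4 (-0.33 ± 0.07), which act with the MYB factors, fell and none rose. For both lists, the share over all genes in roots was 11.3% called higher and 15.2% lower. MYC2, a relative of MYC3 and MYC4, was lowest in replicate 3 of every group, at 106 CPM in WT roots, 104.5 in *pi4kß1ß2* roots, 137 and 179 in the leaves. Its root change of -0.18 ± 0.50 did not pass. SLIM1, the sulfur-starvation regulator, had 0.04 ± 0.07, the repressors SDI1 and SDI2 had -0.48 ± 0.23 and -0.09 ± 0.07, and the calmodulin-binding IQD1 had -0.20 ± 0.06, none of which passed. Of the breakdown genes, the glucosidase gene BGLU30 fell by 0.62 ± 0.19 on the log2 scale, just under the threshold (adjusted p 0.0494, edgeR). Its call held in 0 of the 6 fits that each left out 1 root library. BGLU28 was at 0.22 to 0.33 CPM in WT and 1.04 to 2.30 CPM in *pi4kß1ß2* roots. It passed the filter on low counts only through the mutant libraries, where it is high, so its call is not counted as a finding.

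The indole branch, which starts from tryptophan, went the other way for most of its called genes. Of its 10 genes all were tested, 5 fell and 2 rose, with a median log2 fold change of -0.20. Over all genes 15.2% were called lower and 11.3% higher. CYP79B3, the tryptophan counterpart of the CYP79F enzymes, measured 174, 136 and 132 CPM in WT and 49.6, 59.9 and 53.5 in *pi4kß1ß2* roots, a change of -1.44 ± 0.14 (adjusted p 0.0011, edgeR). CYP83B1, the counterpart of CYP83A1, had -0.39 ± 0.09 and the regulator MYB34 had -0.47 ± 0.10. The glutathione transferase genes GSTF9 and GSTF10 also fell, but their calls held in only 3 and 2 of the 6 fits that each left out 1 root library. The regulator MYB122 (0.68 ± 0.15) and the indole-modifying CYP81F2 (1.34 ± 0.23) rose, and MYB51 had 0.27 ± 0.37 and did not pass. No test compared the branches with each other.

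Leaf and root were compared within each label to see how the pathway is spread over the seedling. The members fell into 3 kinds. CYP79F1 and FMO GS-OX1 were higher in leaves, MAM3, BCAT4, CYP79F2, CYP83A1 and SOT18 were higher in roots, and MYB28 and MAM1 were called in neither direction. The same members stood in each kind for both labels. MYB29 was far higher in leaves too, but it was under 1 CPM in every root library and entered the test only through the leaves, so its call follows from the filter and is left out of these counts. Of the other 9 members, 2 were higher and 5 lower in WT leaves, where 73.7% of all 20291 genes tested were called, 37.4% higher and 36.3% lower. In *pi4kß1ß2*, 2 were higher and 5 lower, where 78.6% of 20413 genes were called, 39.3% in each direction. A share of 7 in 9 is close to this background. The same 7 members were called in each label without WT leaf replicate 2 and *pi4kß1ß2* leaf replicate 1, where 76.1% and 78.6% of all genes were called. Leaf and root libraries did not overlap for these 7 members in either label. Over all genes they did not overlap for 39.7% (higher in leaves) and 39.4% (lower) in WT, and for 42.0% and 40.8% in *pi4kß1ß2*.

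MYB29 was at 0.16 to 0.18 CPM in WT roots and at 5.37, 5.18 and 4.77 CPM in WT leaves. In libraries labelled *pi4kß1ß2* it was at 0.06 to 0.27 CPM in roots and at 6.49, 6.37 and 6.68 CPM in leaves. CYP79F1 measured 15.7, 16.8 and 15.4 CPM in WT leaves, 14.3-fold above WT roots, and 31.7, 17.3 and 16.2 CPM in *pi4kß1ß2* leaves, 7.72-fold above *pi4kß1ß2* roots. FMO GS-OX1 measured 7.57, 8.98 and 8.37 CPM in WT leaves (3.70-fold) and 7.45, 7.62 and 7.15 CPM in *pi4kß1ß2* leaves (2.38-fold). For these 3 genes every leaf library was above every root library.

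The neighbours CYP79F1 and CYP79F2 went in opposite directions between the organs. CYP79F2 measured 21.0, 66.9 and 25.8 CPM in WT leaves and 20.8, 46.3 and 43.5 CPM in *pi4kß1ß2* leaves, with log2 fold changes against roots of -1.71 ± 0.45 (adjusted p 0.014) and -1.94 ± 0.29 (0.001) in edgeR's test. The CYP79F1 level per kilobase was 46.2%, 15.5% and 37.0% of that of CYP79F2 in WT leaves and 93.9%, 23.1% and 22.9% in *pi4kß1ß2* leaves, where it had been under 1.5% in every root library. Per kilobase of all annotated exon bases (3272 for CYP79F1 and 2018 for CYP79F2), CYP79F2 nevertheless remained the more abundant copy in all 12 libraries. In *pi4kß1ß2* leaf replicate 1 this order depended on the length used. CYP79F1 measured 31.7 CPM there against 20.8 CPM for CYP79F2, and its longest transcript has 2743 bases.

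The MAM pair also parted. MAM3 measured 34.4, 136 and 43.1 CPM in WT leaves and 50.1, 109 and 99.8 CPM in *pi4kß1ß2* leaves, -1.99 ± 0.54 (adjusted p 0.016) and -2.09 ± 0.28 (0.0007) against roots on the log2 scale (edgeR). MAM1 measured 94.6, 120.3 and 91.2 CPM in WT leaves and 163, 142 and 123 CPM in *pi4kß1ß2* leaves, with changes of -0.02 ± 0.12 and 0.07 ± 0.11 that did not pass. Per kilobase, MAM1 was above MAM3 in 5 of the 6 leaf libraries, at 110% to 290% of its level, and at 78.9% in WT leaf replicate 2. The other genes that were lower in leaves were BCAT4 (-1.35 ± 0.37 in WT, -1.46 ± 0.12 in *pi4kß1ß2*), CYP83A1 (-0.95 ± 0.29 and -0.77 ± 0.08) and SOT18 (-0.91 ± 0.24 and -1.39 ± 0.16). MYB28 had 0.16 ± 0.12 in WT and -0.41 ± 0.24 in *pi4kß1ß2* and passed in neither. Without the 2 libraries that went against their labels, the fall in WT leaves was larger for MAM3 (-2.84), CYP79F2 (-2.38) and BCAT4 (-1.87), while in *pi4kß1ß2* MAM3 had -1.78, CYP79F2 -1.62 and BCAT4 -1.31.

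With library size alone the median of all genes moved to -0.48 in WT and -0.57 in *pi4kß1ß2*, and MYB28 (-0.32 and -0.96) and MAM1 (-0.50 and -0.51) were then called lower in leaves. The split of all calls moved with it, from 7585 higher and 7363 lower to 4598 higher and 12116 lower in WT, and from 8026 and 8017 to 4727 and 12634 in *pi4kß1ß2*. In WT, MAM3 and BCAT4 lost their calls without leaf replicate 3 (adjusted p 0.0511 and 0.0514), and CYP83A1 lost it without leaf replicate 1 or 3 or any root replicate (up to 0.0839). When any of the leaf replicates of a label was left out, MYB29 reached 1 CPM in only 2 libraries and had no test.

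**Figure D3:**
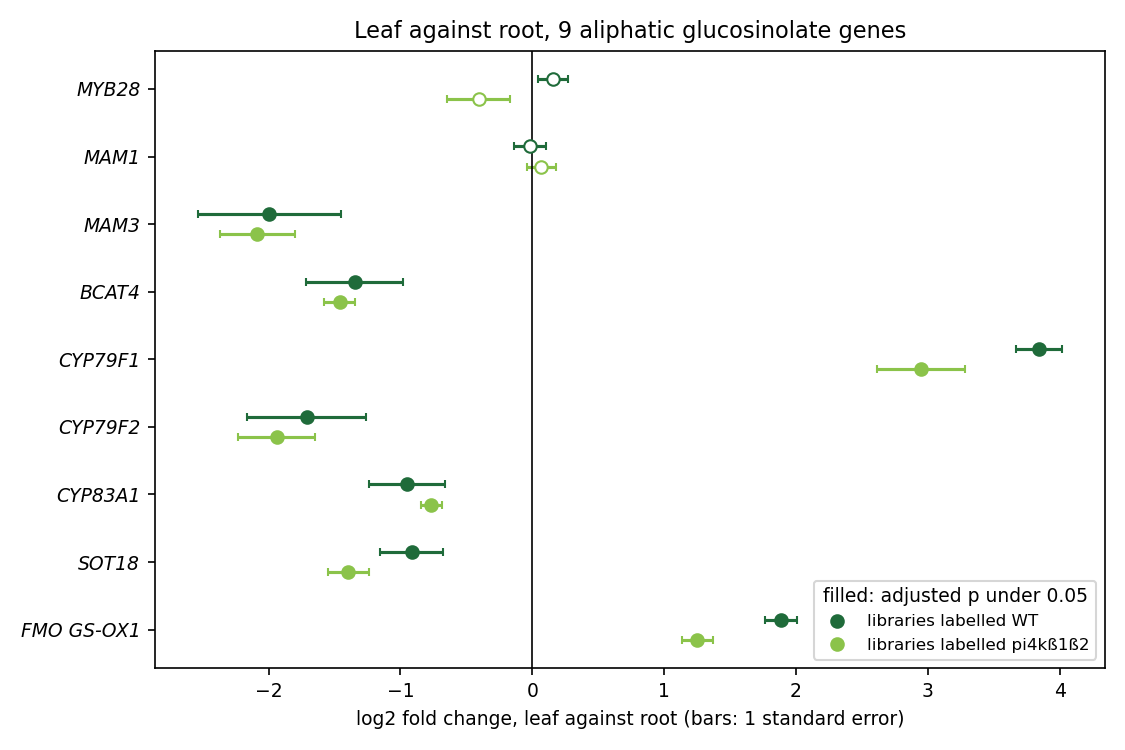
Log2 fold change of leaf against root (x axis, bars 1 SE) for 9 members, MYB29 left out (y axis), in dark green for libraries labelled WT and light green for those labelled *pi4kß1ß2*. Filled points have an adjusted p under 0.05. CYP79F1 and FMO GS-OX1 lie to the right of 0 and MAM3, BCAT4, CYP79F2, CYP83A1 and SOT18 to the left for both labels.

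The other aliphatic genes also went in both directions. Of 17 tested, 4 were higher and 9 lower in WT leaves, where 37.4% of all genes were called higher and 36.3% lower. In *pi4kß1ß2* leaves 6 were higher and 10 lower, where 39.3% of all genes were called in each direction. AOP2, GSTU20, BCAT3 and AOP1 were higher in leaves for both labels, AOP2 by 1.82 ± 0.33 in WT and 0.90 ± 0.22 in *pi4kß1ß2* on the log2 scale. FMO GS-OX4 had -1.80 ± 0.42 and -1.95 ± 0.13, and IPMDH1 -1.50 ± 0.37 and -0.98 ± 0.10. In the indole branch 8 of 10 genes were lower in WT leaves and none higher, and 7 lower and 1 (MYB51) higher in *pi4kß1ß2* leaves. In either direction 73.7% of all genes were called in WT and 78.6% in *pi4kß1ß2*, so most genes differ between these organs. Without the 2 doubted leaf libraries, 4 of the other aliphatic genes were higher and 11 lower in WT leaves and 6 higher and 11 lower in *pi4kß1ß2* leaves. Of the indole genes 8 and 7 were then lower and none was higher, MYB51 not passing. Over all genes 76.1% and 78.6% were called in that setting. Among regulators MYB34 (-1.08 ± 0.14 and -0.81 ± 0.14) and MYB122 (-2.02 ± 0.57 and -2.05 ± 0.30) of the indole branch were lower in leaves, as were SDI1, SDI2 and IQD1. The myrosinase gene TGG1 was higher in leaves and TGG4 and TGG5 were higher in roots.

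Transcripts of the root markers were also read in the leaf libraries, and the levels of the root-high members varied with them. The 7 root markers summed to 45.0, 122 and 59.1 CPM in WT leaf replicates 1 to 3 and to 37.3, 75.2 and 76.1 CPM in *pi4kß1ß2* leaf replicates, against 403 to 557 CPM in the root libraries. As a percent of the mean root level of the same label, the median root marker stood at 9.98%, 27.1% and 13.7% in WT leaves and at 8.01%, 16.6% and 14.2% in *pi4kß1ß2* leaves. MAM3 stood at 12.1%, 47.9% and 15.2% in WT leaves and at 13.9%, 30.1% and 27.6% in *pi4kß1ß2* leaves. In both MAM3 and the markers, replicate 1 was lowest within each label and WT leaf replicate 2 was highest of all.

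MAM3 lay inside the range of the 7 markers in WT leaf replicates 1 and 3 and *pi4kß1ß2* leaf replicate 1, and above it in the other 3 libraries. CYP79F2 stood at 16.9%, 53.9% and 20.7% in WT leaves and 14.9%, 33.2% and 31.2% in *pi4kß1ß2* leaves, inside the marker range in WT leaf replicate 3 alone. BCAT4, CYP83A1 and SOT18 were above the highest root marker in all 6 leaf libraries, at 26.3% to 76.5% of their root level. The part of root RNA in the leaf levels of MAM3 and CYP79F2 was not tested.

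**Figure D4:**
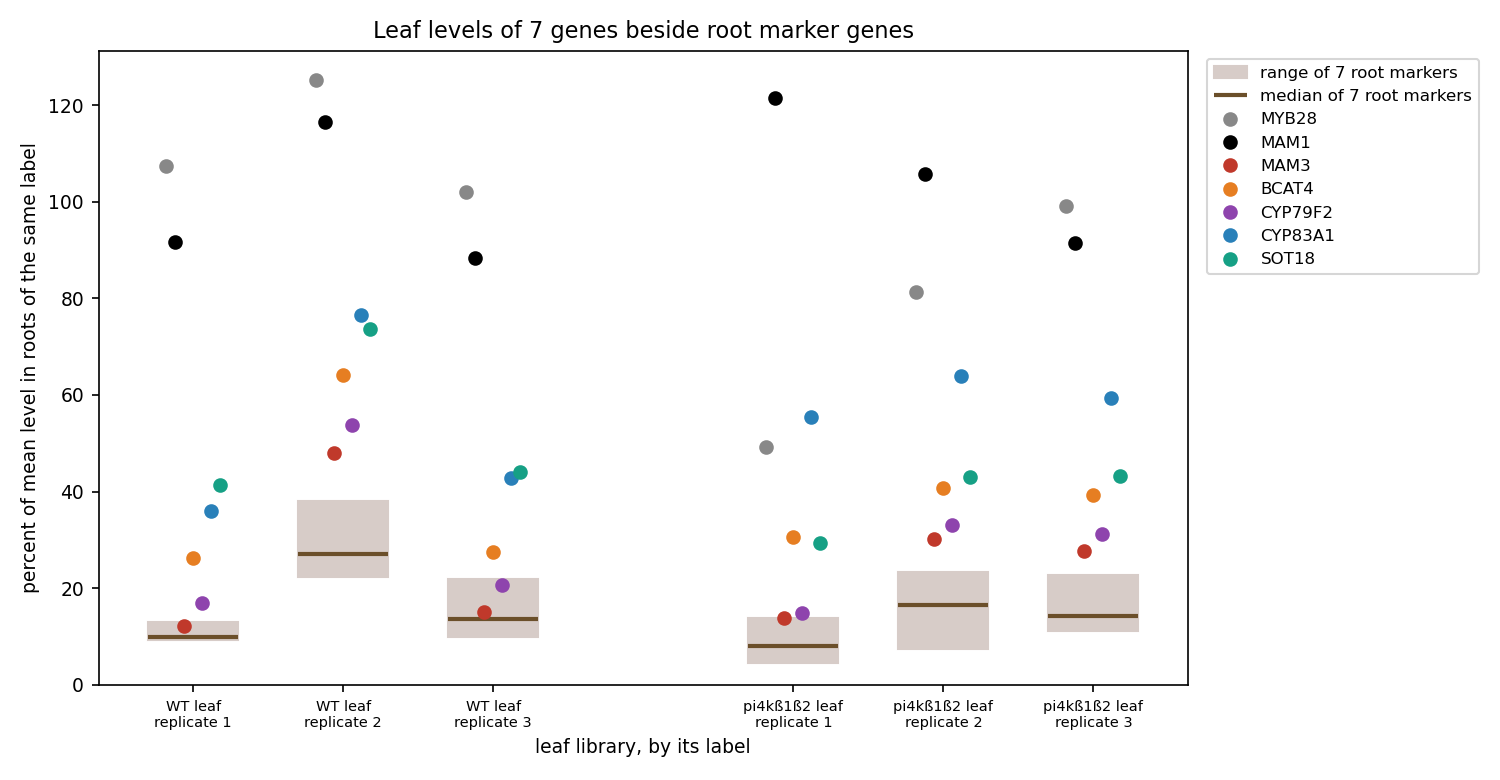
Level in each leaf library (x axis, by label and replicate) as a percent of the mean in roots of the same label (y axis, linear, from 0), for the 7 members other than MYB29, CYP79F1 and FMO GS-OX1, which lie above 200%. Boxes give the range and dark lines the median of 7 root markers, which reach 27.1% in WT leaf replicate 2. MAM3 and CYP79F2 lie nearest to the boxes and MYB28 and MAM1 farthest from them in WT leaves.

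Leaves labelled *pi4kß1ß2* were set against leaves labelled WT for the same question as in roots. None of the 10 members tested passed, where 10.5% of all 19470 genes were called, 3.72% higher and 6.76% lower. DESeq2 called 1 member, MAM1, and 3742 of the 19470 genes. Over all genes edgeR's test gave 2041 called and 5801 at an unadjusted p under 0.05. The groups did not overlap for MYB29 and MAM1, both higher under the *pi4kß1ß2* label, against 20.3% of all genes that did not overlap and were higher and 17.3% that were lower. MAM1 had a log2 fold change of 0.44 ± 0.16 (adjusted p 0.13) and MYB29 0.31 ± 0.12 (0.14) in edgeR's test. MYB28 was at 62.8, 73.3 and 59.8 CPM under the WT label and 29.8, 49.2 and 60.0 CPM under the *pi4kß1ß2* label, a change of -0.54 ± 0.25 with an adjusted p of 0.21 (edgeR), and its lowest library was *pi4kß1ß2* leaf replicate 1. The same library had the highest CYP79F1 and MAM1 levels of all 12.

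Without WT leaf replicate 2 and *pi4kß1ß2* leaf replicate 1, the 2 libraries that went against their labels in PI4KB2, 5 members were called, all higher under the *pi4kß1ß2* label. These were MAM3 (1.39), CYP79F2 (0.90), BCAT4 (0.89), CYP83A1 (0.86) and MAM1 (0.47), with adjusted p between 0.00103 and 0.0127 (edgeR), while over all their alternatives the adjusted p ran up to 0.993. Over all genes that setting called 5140, 27.0% of those tested. The 4 leaf libraries left differ in root markers too, at 45.0 and 59.1 CPM under the WT label and 75.2 and 76.1 CPM under the *pi4kß1ß2* label, and 3 of the 7 root markers (PIN2, CASP1 and CASP2) were called higher. The part of root RNA in these calls was not tested. Without WT leaf replicate 2 alone, MAM1 (0.58), BCAT4 (0.78) and CYP83A1 (0.82) were called, where 2219 of all 19203 genes tested were. Leaving out any other leaf library called no member, where 12 to 1331 of all genes were called. The count over all genes fell to 12 without *pi4kß1ß2* leaf replicate 2.

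Other pathway genes gave few calls between leaf labels. Members included, 2 of 58 pathway genes tested (3.45%) were called, where 10.5% of all genes were. GSTU20, a glutathione transferase of the aliphatic core, measured 214, 287 and 219.8 CPM under the WT label and 462, 478 and 461 CPM under the *pi4kß1ß2* label, a rise of 0.91 ± 0.13 (adjusted p 0.016, edgeR). The specifier gene ESP, which steers breakdown towards nitriles, rose by 1.31 ± 0.15. The calls of GSTU20 and ESP each held in 3 of the 6 fits that left out 1 leaf library (adjusted p up to 0.0802 and 0.0729, edgeR). None of the 7 shared core genes, 7 upstream regulators or 10 indole genes was called. Without the 2 doubted leaf libraries GSTU20 (1.08) and ESP (1.43) were still called. In that setting 9 of the 17 other aliphatic genes were higher, and of the shared genes GGP1, APK1 and APK2 were higher and GTR2 lower. Members included, 22 of 56 pathway genes tested (39.3%) were then called, where 27.0% of all genes were. Of the indole genes the regulator MYB51 and CYP79B2 were then higher, and of the 7 upstream regulators none passed. The breakdown gene ESM1 was then called lower. Of 10 leaf markers 3 (RBCS2B, LHCB1.1 and LHCA1) were higher under the *pi4kß1ß2* label, and 6 without the 2 doubted libraries.

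The genotype by organ interaction asked whether the difference between labels was the same in leaves as in roots. Of the 10 members 1 passed, where 22.4% of all 20765 genes were called, 12.1% positive and 10.3% negative. It was FMO GS-OX1, with an interaction of -0.64 ± 0.15 on the log2 scale and an adjusted p of 0.015 (edgeR). Its change between genotypes was 0.45 ± 0.12 in roots and -0.21 ± 0.11 between leaf labels, of which the latter did not pass. CYP79F1 had -0.89 ± 0.40 with an adjusted p of 0.14 (edgeR). It was called without *pi4kß1ß2* leaf replicate 1 (-1.27), where 4273 of all 20708 genes tested were called. Without WT leaf replicate 2, BCAT4 (0.44) and CYP83A1 (0.58) were called, where 5578 of all 20739 genes tested were. Without both libraries that went against their labels, where 32.2% of all genes were called, 6 members were called, FMO GS-OX1 (-0.58) and CYP79F1 (-1.24) below 0 and MAM3 (1.06), CYP79F2 (0.75), CYP83A1 (0.62) and BCAT4 (0.55) above it.

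As a description, genes were ranked by how their log2 level, taken as the deviation from the organ mean, followed the mean deviation of the 10 members over the 12 libraries. The 10 closest of 20755 genes had Pearson correlations of 0.96 to 0.98 and were AT2G42660, RTM1 (a lectin-like virus restriction protein), MVP1 (a GDSL lipase-like protein), COBL5, AT3G05858, AT5G63680, IPP2 (an isopentenyl diphosphate isomerase), AT4G15270, AT3G04320 and AT1G17285. The closest pathway genes outside the members were IPMI LSU1 (rank 16, 0.96) and SOT17 (rank 67, 0.94). Within the members BCAT4 (0.95) and MAM3 (0.91) followed the mean most closely and MYB29 (0.17) and MYB28 (0.22) least. The libraries share the spread in root markers described above, and over the 6 root libraries alone the 10 closest genes shared none with these. Without the 2 doubted leaf libraries, a setting chosen after seeing the data, 1 of the 10, MVP1, stayed among the closest. IPMI LSU1 stood at rank 159 (0.95) and SOT17 at rank 336 (0.93), so the ranking depended on which libraries were used. BCAT4 (0.93) then still led the members and MYB28 had -0.20.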

How the data were processed

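The authors trimmed stranded single-end reads, removed ribosomal ones, aligned them to TAIR10 with STAR and deposited raw read counts per gene, in which reads matching several genes were left out. The counts on the library strand were used here, 95.0% to 96.8% of the counts summed over both strands, and 2.67% to 2.97% of reads fell on no gene and were left out. Reference names, positions and sequences were those of RefSeq TAIR10.1, a later release of that assembly, in which 37051 of 37336 IDs matched.

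Genes with at least 1 CPM in 3 of the 6 libraries compared (3 of 12 for the interaction) were tested with edgeR 4.0.16 (TMM, robust glmQLFit, glmQLFTest, R 4.3.3) at an adjusted p of 0.05. Printed levels are CPM scaled by TMM over all 12 libraries, and a standard error is the fold change divided by the root of F. Nothing says that leaf replicates came from separate cultures, so p-values measure only the spread between samples. Replicates were compared and none was a repeat of another. The fits were tested on simulated data. DESeq2 1.42.0, the likelihood ratio test, other scalings, filters and left-out libraries were tried.

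All 10 members are described, list genes by their largest called changes and all regulators, and the 10 closest genes by correlation. Members, lists and tests were chosen with earlier results of these data known. PCR reads carry no molecular identifiers, so counts under about 3 are at the limit of the depth.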

Additional observations from a re-analysis of the deposited data

Results flagged for a closer look

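Genes of the pathway whose difference between genotype labels was not the same in leaves as in roots, by the interaction term in edgeR's quasi-likelihood test, were 5 of 59 tested (8.47%), where 22.4% of all genes were called. FMO GS-OX1 had an interaction of -0.64 ± 0.15 on the log2 scale (adjusted p 0.015), which was called in all 21 alternatives (-0.73 to -0.51). FMO GS-OX2, the related oxygenase gene, had 3.07 ± 0.43 (adjusted p 0.0014), with 3.46, 4.11 and 2.49 CPM in leaves labelled WT and 10.05, 6.90 and 4.63 CPM in leaves labelled *pi4kß1ß2* beside its fall in roots. GSTU20 had 0.71 ± 0.17 (adjusted p 0.014), the regulator MYC3 0.38 ± 0.08 (adjusted p 0.0073) and CYP79B3 1.68 ± 0.25 (adjusted p 0.0019). Without the 2 leaf libraries that went against their labels these 5 were still called, FMO GS-OX1 at -0.58, FMO GS-OX2 at 2.92, GSTU20 at 0.86, MYC3 at 0.34 and CYP79B3 at 1.51, among 25 of 59 pathway genes (42.4%) and 32.2% of all genes.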

How the results depend on the processing

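Of the members' fold changes under the alternatives, 110 of 135 in roots, 142 of 160 between leaf labels, 143 of 155 and 150 of 155 between organs in WT and *pi4kß1ß2*, and 194 of 210 for the interaction kept direction and side of the threshold. All 12 libraries in 1 fit called 2 members in roots and 1 between leaf labels, and DESeq2 called 1 between leaf labels. Library size alone changed the sign of MYB28 in WT organs to -0.32 and MAM1 to -0.51 in *pi4kß1ß2* organs and -0.0134 for the interaction. Without both doubted leaf libraries 5 members were called between leaf labels and 6 for the interaction, and the sign changed for CYP79F2 (0.90) and SOT18 (0.20) between leaf labels, MAM1 (-0.0038) in *pi4kß1ß2* organs, and MAM3 (1.06), BCAT4 (0.55) and CYP79F2 (0.75) for the interaction. Leaving out 1 library at a time gave 4 to 7 members in roots, 0 to 3 between leaf labels, 4 to 7 between WT organs, 7 to 8 between *pi4kß1ß2* organs and 1 to 3 for the interaction. MYB28 then ranged from -0.0191 to 0.15 in roots. Between leaf labels MAM3 ranged from -0.11 to 1.12, BCAT4 from -0.0088 to 0.78, CYP79F2 from -0.38 to 0.62 and SOT18 from -0.44 to 0.039. MAM1 ranged from -0.12 to 0.0903 between WT organs, -0.0115 to 0.21 between *pi4kß1ß2* organs and -0.0294 to 0.22 for the interaction, where MAM3 ranged from -0.43 to 0.78, BCAT4 from -0.34 to 0.44, CYP79F2 from -0.52 to 0.47 and CYP83A1 from -0.0254 to 0.58. Over all genes, 1 fit for 12 libraries called 2429 in place of 5233 in roots and 5397 in place of 2041 between leaf labels, where DESeq2 called 3742, the fit without both doubted libraries 5140, and fits without 1 library 12 to 2219. The cause was not tested.

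In no pair of groups did all 3 same-numbered libraries deviate together with a correlation over 0.1, and the main fits were not paired. The correlations were -0.03, 0.21 and 0.48 between the root genotypes and 0.40, 0.64 and 0.06 between the leaf labels. In each case 2 of 3 libraries were closest to their own number. Same-numbered libraries were still more alike on average than differently numbered ones. Their means were 0.22 against -0.11 between root genotypes and 0.36 against -0.21 between leaf labels, so a part shared by replicate number may remain. With a replicate block 5 members were called in roots, CYP83A1 and FMO GS-OX1 being lost and SOT18 gained, 0 between leaf labels, 8 in each organ comparison and 1 for the interaction, and CYP79F2 between leaf labels (0.0219) and MAM3 for the interaction (0.0283) changed sign. Counts of members and of fold changes between organs here and in the paragraph before include MYB29. Its call between organs follows from the filter, so its part in these counts does not show that a call is stable. Depth limits MYB29 in roots, at 3 to 14 counts.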
